A study of Mus musculus with 18 samples.

Results

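The nuclear genome codes for most subunits of the mitochondrial respiratory chain, and these genes were followed here in mouse colon libraries from animals or cultures on serine-free diets. Members were the protein-coding rows of the count table whose symbol begins with Nduf, Uqcr, Atp5, Cox4i, Cox5, Cox6, Cox7 or Cox8, or equals Sdha, Sdhb, Sdhc, Sdhd, Cyc1 or Cycs. The rule reads names and no expression value. It found 99 rows of 54354 in the table, of which 21782 were protein-coding. The 99 rows carry 98 symbols, because Atp5o is listed in 2 rows, of which the second held no count. Counts were found for 94 members in the 10 serine-free libraries, and 89 members passed the filter on low counts and were tested.

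Libraries were made from poly(A) RNA with the strand kept. The 5 libraries of the serine-free control diet (SF_CD) were compared with the 5 of the serine-free high fat diet (SF_HFD), so both groups lacked dietary serine and differed in dietary fat. Both groups are labelled as wild type colon with the cell type tumor, and the labels give no age, sex or strain. They name organoids, cultures of epithelial cells, as the source of the RNA, while the design text of the series describes sorted live cells, and they do not say whether the libraries of a group are separate animals or cultures. The series holds 18 libraries in all, and the 8 of the diets with serine were not analysed here because their row labels do not name the genes of their counts. All p-values therefore speak only of the variation among these libraries, part of which may be technical.

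The respiratory chain moves electrons from NADH and succinate to oxygen and stores the energy as a proton gradient across the inner mitochondrial membrane. Complex I (NADH dehydrogenase) and complex II (succinate dehydrogenase) pass electrons to ubiquinone, complex III passes them to cytochrome c, and complex IV (cytochrome c oxidase) hands them to oxygen, while complex V (ATP synthase) uses the gradient to make ATP. Complexes I, III, IV and V also contain subunits encoded by mitochondrial DNA, so that 2 genomes must supply each of them, whereas complex II is encoded in the nucleus alone. In the colon, absorptive epithelial cells rely on oxidation of short-chain fatty acids, and many tumors keep an active chain.

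The name rule does not give subunits alone. Of the 99 rows, 38 were placed with complex I, 4 with complex II, 9 with complex III, 1 with cytochrome c, 21 with complex IV and 18 with complex V. The rows of complexes I and IV include Ndufb11b and Cox5b-ps, copies of subunit genes, and those of complex V include both rows of Atp5o. The other 8, Ndufaf1 to Ndufaf8, are assembly factors that help to build complex I and are not part of it. Ndufa4, despite its name, was placed with complex IV, where its protein is found, and Cox7a2l, which links complexes III and IV into supercomplexes, was kept in the same class.

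Libraries differed in depth, and 2 of them stood apart. Totals ranged from 499774 to 12841275 counts, with SF_CD 1, SF_CD 5 (523601 counts) and SF_HFD 5 (727610 counts) under 1000000. Ribosomal RNA took 22.0% of the counts in SF_CD 1 and 14.5% in SF_CD 5, against 2.08% to 7.19% in the other 8 libraries. SF_HFD 5 was also shallow but had only 2.97% of ribosomal RNA. Tested members had 1 to 241 counts in SF_CD 1 and 185 to 22013 in SF_CD 4. The comparison of the members is therefore given for all 10 libraries and for the 7 deep ones (SF_CD 2, 3 and 4 against SF_HFD 1 to 4). Ribosomal RNA still differed between the deep groups, at 2.08% to 2.40% in SF_CD and 3.59% to 7.19% in SF_HFD. Its part in the values below was not tested.

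Epithelial markers were present in every library, with a summed level of 2497 to 6433 CPM (counts scaled to the depth of the library, with TMM normalization) in SF_CD and 4747 to 11314 CPM in SF_HFD. Of these, 0 of 10 were called by edgeR, where 0.323% of all genes tested were called. At an unadjusted p under 0.05 there were 3 of the 10, where 11.6% of all genes were. DESeq2 called Krt8. Fold changes were positive in SF_HFD for 9 of the 10, with a median log2 fold change of 0.69 (0.56 in the deep libraries), beside 0.02 over all genes (0.05 in the deep libraries). Stromal markers were rare but differed: the 7 smooth muscle markers summed to 2.93 to 24.3 CPM in SF_CD and 168 to 257 CPM in SF_HFD, with Acta2, Actg2 and Myl9 higher, and the 8 fibroblast markers to 12.0 to 93.1 and 69.2 to 136 CPM, with Postn higher. Of 8 macrophage and leukocyte markers, Fcer1g was lower in SF_HFD (33.7 to 116 against 7.35 to 41.5 CPM summed, Cd3e at 0). Of 6 goblet cell markers, Muc2 and Zg16 were called lower and 1 marker was positive (median log2 fold change -1.30, and -1.10 in the deep libraries). The sum of all 6 overlapped between the groups and was not lower in SF_HFD, at 58.8 to 263 against 65.4 to 332 CPM. The 4 endothelial markers summed to 3.62 to 33.7 CPM against 0 to 4.29 CPM, with none called. Both DESeq2 and limma-voom also called Tagln, Cnn1, Col1a2 and Lyz2, and limma-voom alone called Col1a1, Dcn and Tff3. The part of these cells in the values below was not tested, and in bulk RNA fewer cells of a type and less RNA per cell cannot be told apart.

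Together the members took 1.16%, 4.23%, 3.86%, 3.95% and 2.48% of all counts in SF_CD 1 to 5. In SF_HFD 1 to 5 they took 3.99%, 3.4%, 3.87%, 3.67% and 3.80%. The SF_HFD libraries were thus close to each other, and the 2 low values were those of the SF_CD libraries rich in ribosomal RNA. The mean share was 3.14% ± 1.29 in SF_CD and 3.75% ± 0.226 in SF_HFD (SD, n = 5). In the deep libraries the order turned, with 4.01% ± 0.195 in SF_CD (SD, n = 3) and 3.73% ± 0.259 in SF_HFD (SD, n = 4), and the groups overlapped. With ribosomal RNA and Malat1, a nuclear noncoding RNA at 12.1% of SF_CD 1, taken out of the total, SF_CD 1 still held 1.76% and SF_CD 5 2.96%. By that measure the deep libraries were at 4.13% ± 0.199 in SF_CD (SD, n = 3) and 3.96% ± 0.237 in SF_HFD (SD, n = 4). The groups overlapped there too.

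**Figure D1:**
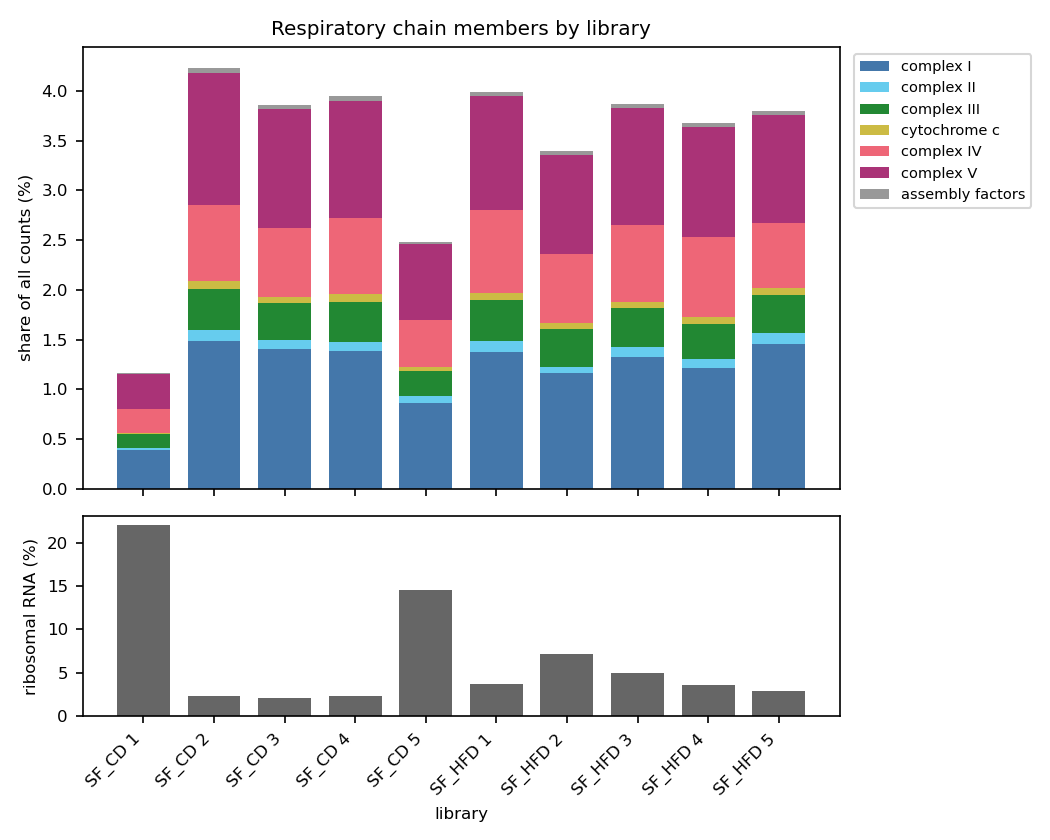
Share of all counts (%, upper bars) held by the members of each class in each of the 10 libraries, and share of ribosomal RNA (%, lower bars). SF_CD 1 and SF_CD 5, with 22.0% and 14.5% of ribosomal RNA, held 1.16% and 2.48% of counts in members, and the other 8 libraries held 3.4% to 4.23%.

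All classes were low in these libraries. SF_CD 1 was the lowest of the 10 libraries for 79 of 89 tested members (88.8%) and SF_CD 5 for the other 10 (11.2%). Over all 11780 genes tested, SF_CD 1 was lowest for 42.1%, and for ribosomal protein genes for 78 of 90. A member in SF_CD 1 had a median of 0.340 times its median level in the other libraries, and in SF_CD 5 of 0.670 times. SF_HFD 2 came next with 0.742 times. SF_HFD 5, at a depth close to that of SF_CD 5, reached 96.3% of the mean summed level of the deep SF_HFD libraries, whereas SF_CD 5 reached 59.8% and SF_CD 1 31% of that of the deep SF_CD libraries.

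**Figure D2:**
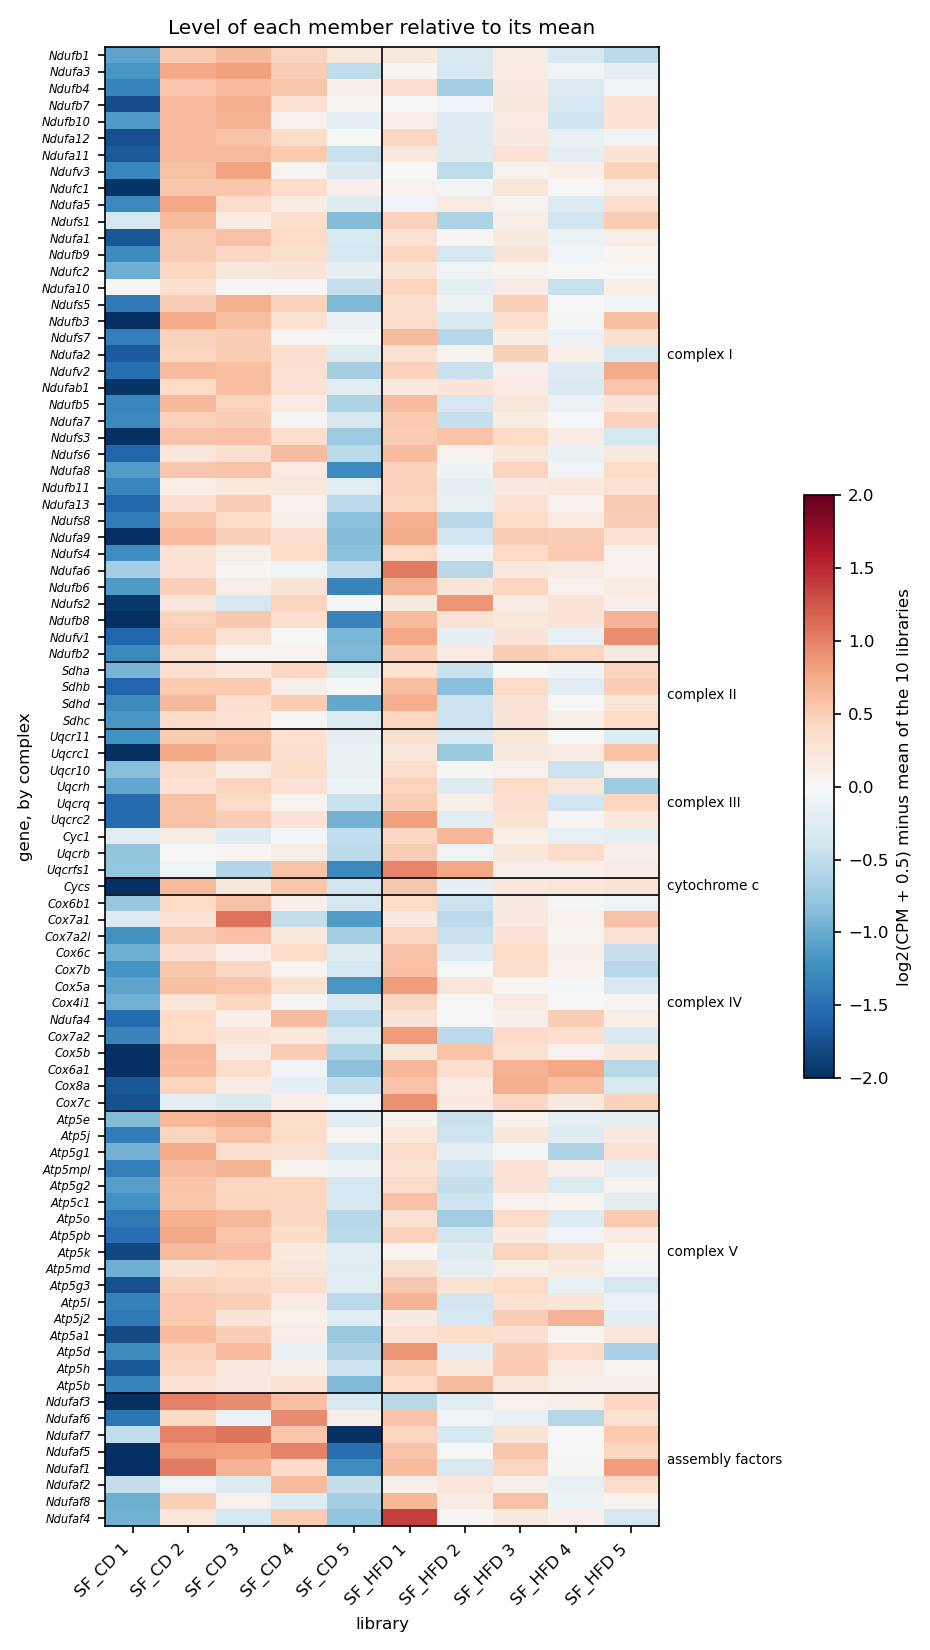
Level of the 89 tested members (rows, by complex) in each library (columns), as log2(CPM + 0.5) minus the member's mean over the 10 libraries, with colours ending at 2 in either direction. The SF_CD 1 column is blue for nearly all members and SF_CD 5 for most, while SF_CD 2 and SF_CD 3 hold the highest value for 20 and 24 members and SF_HFD 1 for 26.

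None of the 89 tested members passed an adjusted p of 0.05 between SF_HFD and SF_CD (edgeR quasi-likelihood test over all 11780 genes), where 0.323% of all genes were called (0.153% higher, 0.17% lower). At an unadjusted p under 0.05 there was 1 member, Cox7c, against 11.6% of all genes, and DESeq2 and limma-voom called none either. Fold changes were positive in SF_HFD for 63 members and negative for 26, with a median log2 fold change of 0.13, beside 0.02 and 51.4% positive over all genes. The standard error of a single member was 0.29 to 0.50 on the log2 scale. Without the 3 shallow libraries, 20 members were positive and 70 negative of 90 tested, with a median of -0.22 beside 0.05 over all genes, and again 0 members were called, where 0.205% of genes were. The direction of 44 of the 89 members turned between the 2 sets of libraries, so no direction is given for the members as a group.

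In the deep libraries, 15 of 90 members (16.7%) had an unadjusted p under 0.05, where 16.5% of all genes did, which is no excess. They were split unevenly. The 13 that were lower in SF_HFD made up 14.4% of the members beside 7.91% of all genes lower, and the 2 higher ones, Cox7c and Ndufa4l2, made up 2.22% beside 8.6%. The smallest adjusted p was 0.158, for Ndufaf3. Levels did not overlap between the groups for 16 members lower in SF_HFD (17.8%, background 9.36%) and for 1 higher (1.11%, background 9.29%). With 3 against 4 libraries, such shares describe these libraries only. Ribosomal protein genes also took less in SF_HFD, without overlap. They held 18.6% to 20.3% of counts in the deep SF_CD libraries and 15.6% to 18.2% in the deep SF_HFD ones. Lower levels there were thus not particular to the members. Ndufb4 is among both the 13 and the 16, and its sum with a near-identical copy, given below, overlapped between the deep groups.

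**Figure D3:**
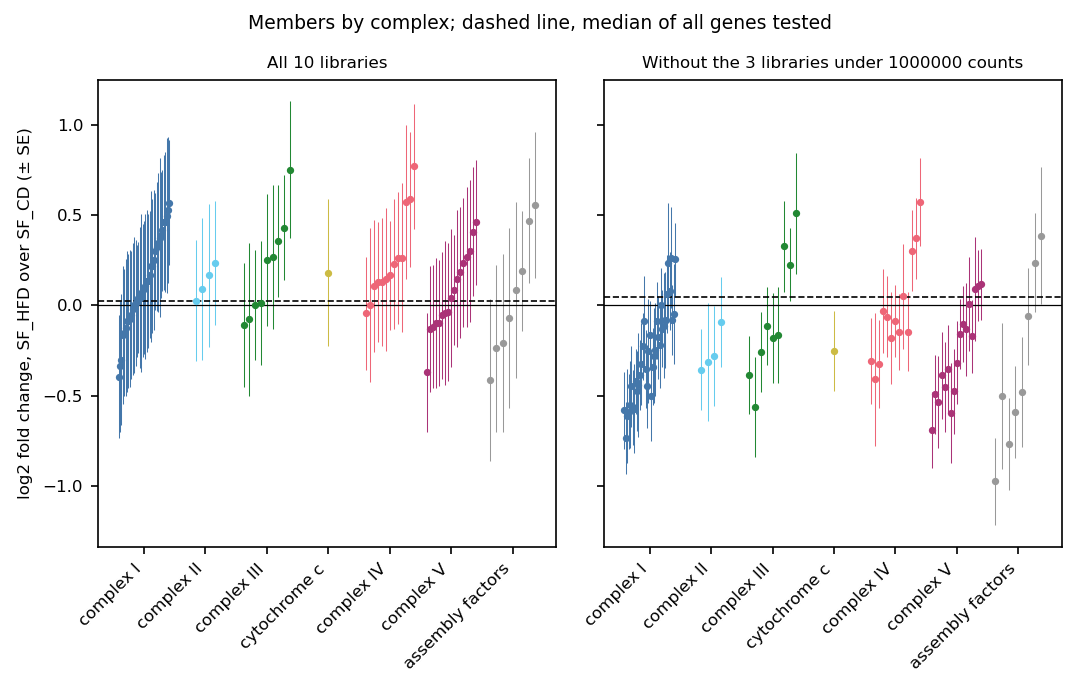
Log2 fold change of each tested member, SF_HFD over SF_CD, with its standard error, by class, for all 10 libraries (left) and the 7 deep ones (right). The dashed line is the median of all genes (0.02 and 0.05). The members lie around 0.13 on the left and around -0.22 on the right.

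Complex I oxidises NADH. Its 7 nuclear-encoded core subunits carry the flavin and iron-sulfur centres, and its accessory subunits stabilise the arm structure. Of 37 tested subunits, 26 were positive and 11 negative in SF_HFD (median log2 fold change 0.10), and in the deep libraries 6 and 31 (median -0.25). Of the core subunits 6 of 7 were positive (median 0.21), and in the deep libraries 1 of 7 (median -0.11). Their summed level was 447, 1712, 1572, 1338 and 803 CPM in SF_CD 1 to 5 and 1770, 942, 1373, 1125 and 1722 CPM in SF_HFD 1 to 5. The groups overlapped.

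Ndufb2, a small membrane-arm subunit, had the largest positive fold change of complex I. Its levels were 42.7, 132, 110, 109 and 56.3 CPM in SF_CD and 149, 118, 149, 143 and 120 CPM in SF_HFD. SF_CD 1 and SF_CD 5 were low, and SF_CD 2 lay among the SF_HFD values. The log2 fold change was 0.57 ± 0.35 (SE, adjusted p = 0.547), and 0.26 ± 0.20 in the deep libraries (adjusted p = 0.538).

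Ndufb1, another membrane-arm subunit, had the most negative value. It stood at 146, 437, 478, 415 and 353 CPM in SF_CD and at 352, 245, 339, 246 and 211 CPM in SF_HFD. All SF_CD libraries but SF_CD 1 lay above all SF_HFD libraries. Its log2 fold change was -0.39 ± 0.34 (adjusted p = 0.701), and -0.58 ± 0.21 in the deep libraries (unadjusted p = 0.0214, adjusted p = 0.235, edgeR).

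Ndufa3, a hydrophobic accessory subunit, showed a like order. Its levels were 207, 784, 815, 648 and 326 CPM in SF_CD and 472, 370, 515, 439 and 409 CPM in SF_HFD. The 3 deep SF_CD libraries were above every SF_HFD library, and the 2 shallow ones below. In the deep libraries the log2 fold change was -0.73 ± 0.20 (unadjusted p = 0.00431, adjusted p = 0.163, edgeR), and over all 10 it was -0.34 ± 0.36 (adjusted p = 0.774). Ndufa7, the complex I member with the highest level per length, was at 865 ± 360 CPM in SF_CD against 975 ± 251 CPM in SF_HFD (SD, n = 5), within its spread.

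The assembly factors hold intermediates of complex I together or modify them, and leave before the complex is complete. Of 8 tested, 4 were positive and 4 negative (median log2 fold change 0.01), and in the deep libraries 2 and 6 (median -0.49). Ndufaf3, which joins an early assembly module, was at 11.2, 103, 97.8, 76.8 and 40.7 CPM in SF_CD against 34.4, 43.8, 53.7, 55.6 and 67.9 CPM in SF_HFD. The 3 deep SF_CD libraries exceeded every SF_HFD library. Its log2 fold change was -0.42 ± 0.45 over all libraries (adjusted p = 0.774) and -0.98 ± 0.24 in the deep ones (unadjusted p = 0.00261, adjusted p = 0.158, edgeR).

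Ndufaf7, a methyltransferase acting on a core subunit, and Ndufaf5, which hydroxylates another, were also lower in the deep libraries. Ndufaf7 was at 65.1 ± 11.9 CPM in SF_CD (SD, n = 3) and 38.1 ± 8.54 CPM in SF_HFD (SD, n = 4). Ndufaf5 was at 33.0 ± 2.18 and 21.8 ± 4.99 CPM. Neither passed the adjusted threshold (adjusted p = 0.208 and 0.289, edgeR). Over all 10 libraries the log2 fold changes were -0.21 ± 0.49 for Ndufaf7 and -0.07 ± 0.50 for Ndufaf5 (adjusted p = 0.913 and 0.976, edgeR). Ndufaf4, which acts with Ndufaf3, had a log2 fold change of 0.56 ± 0.40 (adjusted p = 0.631), with 195 CPM in SF_HFD 1 and 59.1 to 84.8 CPM in the other SF_HFD libraries. Without SF_HFD 1 its log2 fold change was 0.16 ± 0.39 (adjusted p = 0.950, edgeR). Ndufaf8, the assembly factor with the highest level per length, was at 70.7 ± 28.5 CPM in SF_CD against 99.1 ± 23.3 CPM in SF_HFD (SD, n = 5, adjusted p = 0.639, edgeR).

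Complex II links the citric acid cycle to the chain. Its 4 genes were all positive over 10 libraries (median log2 fold change 0.13) and all negative in the deep ones (median -0.30), with no call in either. Sdhb, the iron-sulfur subunit, had the highest level per length, at 382 CPM per kilobase. It stood at 132, 574, 575, 435 and 392 CPM in SF_CD and 603, 223, 526, 343 and 559 CPM in SF_HFD, so that each group held both high and low libraries. Sdhc, a membrane anchor, was at 101 ± 36.3 and 121 ± 26.1 CPM, and Sdha, the flavoprotein with the active site, at 127 ± 41.5 and 131 ± 31.3 CPM (SD, n = 5).

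In complex III, 7 of 9 members were positive (median log2 fold change 0.25), and in the deep libraries 3 of 9 (median -0.16). Uqcrfs1 is the Rieske iron-sulfur protein, which takes electrons from ubiquinol. It was at 47.2, 76.2, 54.0, 121 and 33.0 CPM in SF_CD against 160, 138, 88.6, 88.9 and 90.6 CPM in SF_HFD. SF_CD 4 was the only SF_CD library within the SF_HFD range. Its log2 fold change was 0.75 ± 0.38 (adjusted p = 0.457) and stayed positive in the deep libraries, at 0.51 ± 0.34 (adjusted p = 0.459).

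Cyc1, the other electron-carrying nuclear subunit of complex III, was at 68.7 ± 11.6 CPM in SF_CD against 88.3 ± 23.1 CPM in SF_HFD (SD, n = 5, adjusted p = 0.707, edgeR). Uqcrq, which sits beside the mitochondrially encoded cytochrome b, had the highest level per length of the complex, at 1644 CPM per kilobase. Its level was 756 ± 354 CPM in SF_CD and 901 ± 198 CPM in SF_HFD. Uqcr11, a small membrane subunit, had the most negative value, a log2 fold change of -0.11 ± 0.34 (adjusted p = 0.939, edgeR).

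Complex IV has a catalytic core made in mitochondria and a shell of nuclear subunits. Of 13 tested members 12 were positive (median log2 fold change 0.16), and in the deep libraries 5 of 14 (median -0.08). Cox7c, a small membrane subunit of this shell, was the 1 member of 89 whose groups did not overlap in all 10 libraries, where 2.23% of all genes were higher and 1.42% lower without overlap (3.65% in all). Its levels were 117, 351, 323, 435 and 376 CPM in SF_CD and 752, 456, 530, 451 and 548 CPM in SF_HFD. The highest SF_CD library, SF_CD 4, lay just under SF_HFD 4, and SF_HFD 1 stood above the other 4 of its group. The log2 fold change was 0.77 ± 0.35 (unadjusted p = 0.0408, adjusted p = 0.399, edgeR), and 0.57 ± 0.24 in the deep libraries (adjusted p = 0.286).

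The count of Cox7c depends on how reads were shared among near-identical copies. A comparison of all annotated transcripts in words of 31 bases found 3 members with copies that share at least 60 words and 5% of the member's words and hold at least 1000 counts. Other members and rarer copies fell outside this rule. Atp5g2, Atp5l and Uqcrb shared 87.7%, 69.6% and 54.3% of their words with other genes, and how their reads were divided was not examined. For Cox7c (chromosome 13, 86044816 to 86046904, minus strand, GRCm38/mm10) the copies found were Cox7c-ps1 (chromosome 17, 25901856 to 25902227, plus strand), a transcribed processed pseudogene, and Gm12338 (chromosome 11, 75599763 to 75599954, minus strand), a processed pseudogene. A processed pseudogene is a copy of the spliced messenger RNA inserted elsewhere in the genome. The coding sequences are shown because they differ so little: Gm12338 is identical to Cox7c over the 192 coding bases, and Cox7c-ps1 differs by 2 substitutions, G30C and G107A, counted from 1 at the first base of the start codon and set in capitals.
Cox7c: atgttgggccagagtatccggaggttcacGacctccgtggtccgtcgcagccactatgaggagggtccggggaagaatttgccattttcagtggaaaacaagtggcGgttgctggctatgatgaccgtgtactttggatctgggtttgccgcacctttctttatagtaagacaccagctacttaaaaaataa
Cox7c-ps1: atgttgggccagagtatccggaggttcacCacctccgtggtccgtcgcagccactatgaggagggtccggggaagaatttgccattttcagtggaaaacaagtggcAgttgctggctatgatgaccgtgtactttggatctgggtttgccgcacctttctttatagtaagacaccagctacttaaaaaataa

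Within the coding sequence, reads that miss both capital letters fit either gene, while over the whole transcripts Cox7c shared 19.8% of its words with Cox7c-ps1. The 3 copies together were at 346, 938, 835, 1127 and 819 CPM in SF_CD and at 1525, 911, 1078, 897 and 1215 CPM in SF_HFD. With the copies summed, the groups overlapped: 813 ± 289 CPM in SF_CD and 1125 ± 259 CPM in SF_HFD (SD, n = 5, two-sided exact permutation test p = 0.0952, adjusted over the 3 copy families 0.286). The families of Cox7c and Cycs were summed after their values had been seen. Cox7c held 33.8% to 46.0% of its family's counts in SF_CD and 45.1% to 50.3% in SF_HFD. In the deep libraries its share was 37.4%, 38.8% and 38.6% in SF_CD 2 to 4. It was 49.3%, 50.1%, 49.2% and 50.3% in SF_HFD 1 to 4. These shares did not overlap, while the summed levels of the deep libraries did. The part of the division of reads in the difference of Cox7c was not tested. Cox7c-ps1 itself was at 460 ± 160 and 479 ± 107 CPM, with a log2 fold change of 0.05 ± 0.33 (adjusted p = 0.971, edgeR), and Gm12338 at 32.6 ± 16.9 and 98.7 ± 35.4 CPM, with 1.53 ± 0.41 (adjusted p = 0.147, edgeR).

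Ndufb4, an accessory subunit of complex I (chromosome 16, 37647170 to 37654453, minus strand), has a processed pseudogene, Ndufb4c (chromosome 15, 73809507 to 73809896, minus strand), whose 390 bases are the coding sequence of Ndufb4 without a mismatch. Its first 150 bases are printed with the start codon in capitals, since no read within this stretch can tell the genes apart.
Ndufb4: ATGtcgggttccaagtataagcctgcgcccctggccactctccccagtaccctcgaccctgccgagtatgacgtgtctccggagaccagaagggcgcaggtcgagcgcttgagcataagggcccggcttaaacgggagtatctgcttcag

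Ndufb4c received 0 counts in each of the 5 SF_CD libraries and 942, 174, 751, 709 and 53 counts in SF_HFD 1 to 5. Ndufb4 itself had 72, 5311, 4409, 7804 and 224 counts in SF_CD and 5663, 1093, 5015, 4416 and 306 in SF_HFD. The share given to Ndufb4 was thus 100% in every SF_CD library and 85.2% to 87.0% in SF_HFD, and Ndufb4c was itself called higher in SF_HFD (adjusted p = 3.56e-05, edgeR). How the authors' quantification divided reads that fit both is not given in the sources used here, so the level of Ndufb4 alone depends on that division. Ndufb4 was at 162, 583, 615, 590 and 435 CPM in SF_CD against 511, 251, 462, 332 and 385 CPM in SF_HFD (log2 fold change -0.30 ± 0.36, adjusted p = 0.805, edgeR). In the deep libraries its log2 fold change was -0.61 ± 0.26 (unadjusted p = 0.0399, adjusted p = 0.280, edgeR), with no overlap between the groups. The sum of both was 477 ± 190 CPM in SF_CD and 451 ± 120 CPM in SF_HFD (SD, n = 5, two-sided exact permutation test p = 0.810). Over the 10 libraries the difference of the sums was smaller than the spread between libraries. In the deep libraries the sum was 583, 615 and 590 CPM in SF_CD and 595, 291, 531 and 385 CPM in SF_HFD, a difference of -145 CPM (two-sided exact permutation test p = 0.171). There SF_HFD 1 lay within the range of SF_CD and the other 3 SF_HFD libraries below it. With 3 libraries against 4, the smallest p the permutation test can give is 0.0571, so it could not reach 0.05 for this difference.

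Cycs codes for cytochrome c, the carrier between complexes III and IV and a trigger of apoptosis when released. Its locus (chromosome 6, 50562563 to 50566538, minus strand) shares all 318 coding bases with Gm10053 (chromosome 19, 24875686 to 24876631, plus strand), and differs at 2 of them, G4A and G44A, from Gm10108 (chromosome 5, 13121448 to 13121766, minus strand). Cycs was at 121, 847, 637, 797 and 419 CPM in SF_CD against 786, 483, 638, 640 and 659 CPM in SF_HFD. The SF_HFD values lay within the range of SF_CD. Its log2 fold change was 0.18 ± 0.41 (adjusted p = 0.911, edgeR), and the 3 genes summed were at 870 ± 452 and 1077 ± 163 CPM (SD, n = 5, two-sided exact permutation test p = 0.381, adjusted 0.571).

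**Figure D4:**
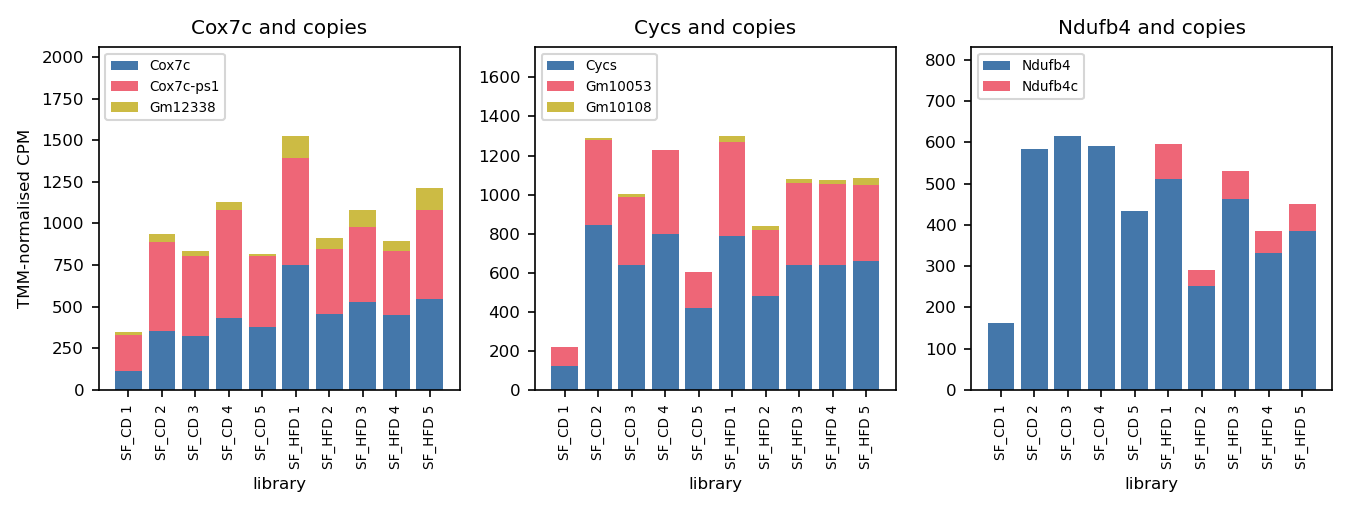
TMM-normalised CPM of Cox7c, Cycs and Ndufb4 with their near-identical copies stacked, in each library. The stack of Cox7c was 346 to 1127 CPM in SF_CD and 897 to 1525 CPM in SF_HFD, and Ndufb4c appears in the 5 SF_HFD libraries and in no SF_CD library.

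Among the other complex IV members, Ndufa4 had the highest level per length of all members, at 2388 CPM per kilobase. It was at 348, 1338, 1095, 1569 and 702 CPM in SF_CD against 1238, 1022, 1105, 1438 and 1127 CPM in SF_HFD. The groups overlapped, with SF_CD 4 the highest library of all. Its log2 fold change was 0.23 ± 0.36 (adjusted p = 0.859, edgeR), and -0.15 ± 0.21 in the deep libraries. Cox6b1, on the intermembrane side, was the 1 negative tested member of the complex, with -0.05 ± 0.31 (adjusted p = 0.975, edgeR).

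Several complex IV subunits exist as a ubiquitous isoform and a tissue-restricted one, for example of heart and skeletal muscle. These libraries held almost only the ubiquitous forms. Cox4i2, the lung-enriched form, was at 0 counts in all 10 libraries, while Cox4i1 was at 1029 ± 344 CPM in SF_CD against 1154 ± 150 CPM in SF_HFD (SD, n = 5). A count of 0 in 10 libraries allows a level of up to 0.0423 CPM (3 counts of the total, counting error only). Cox6a2, the muscle form, had 5 counts in SF_CD and 3 in SF_HFD, beside 182 ± 103 and 273 ± 84.2 CPM for Cox6a1. Cox8b, also a muscle form, had 1 and 4 counts, beside 334 ± 153 and 503 ± 132 CPM for Cox8a. The 4 cardiac and skeletal muscle markers summed to 0 to 0.529 CPM, with Actn2 at 0.

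Cox7a1 was the exception. It is known from heart, skeletal muscle and brown fat, and was at 24.7, 36.0, 64.3, 21.4 and 13.6 CPM in SF_CD against 34.4, 20.7, 34.4, 31.8 and 45.3 CPM in SF_HFD. It made up 4.43% ± 2.49 of the Cox7a1 and Cox7a2 counts in SF_CD and 3.92% ± 1.68 in SF_HFD (SD, n = 5, two-sided exact permutation test p = 0.833). Cox7a2 was at 743 ± 285 and 893 ± 334 CPM. Cox6b2, the testis form, had 31 counts in SF_CD, 27 of them in SF_CD 4, and 6 in SF_HFD. Its share of the Cox6b counts was 0.0529% ± 0.0956 and 0.0158% ± 0.0158 (two-sided exact permutation test p = 0.738, n = 5).

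Ndufa4l2, a homolog of Ndufa4 that is induced in hypoxia, had 9 counts in SF_CD and 94 in SF_HFD. By library these were 0, 7, 1, 0 and 1 counts in SF_CD and 60, 2, 18, 12 and 2 counts in SF_HFD. SF_HFD 1 alone held 60 of them. It fell below the filter on low counts with all 10 libraries. Without the filter its log2 fold change was 2.53 ± 1.06 (unadjusted p = 0.0212, adjusted p = 0.277, edgeR), and in the deep libraries 2.83 ± 1.21 (adjusted p = 0.283). Its share of the Ndufa4 and Ndufa4l2 counts was 0.0691% ± 0.118 in SF_CD and 0.183% ± 0.158 in SF_HFD (SD, n = 5, two-sided exact permutation test p = 0.262, adjusted over 6 isoform shares 0.524). The other untested members were Cox8c, Cox7b2, Ndufb11b and the second Atp5o row, all at 0, and Cox5b-ps with 1 count.

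Complex V couples a membrane rotor to a catalytic head. Of 17 tested members 9 were positive and 8 negative (median log2 fold change 0.04), and in the deep libraries 4 and 13 (median -0.32). Atp5e, the epsilon subunit of the head's stalk, was at 292, 837, 880, 678 and 460 CPM in SF_CD against 557, 389, 560, 466 and 465 CPM in SF_HFD. The 3 deep SF_CD libraries exceeded every SF_HFD library. This gave a log2 fold change of -0.37 ± 0.33 (adjusted p = 0.71, edgeR), and -0.69 ± 0.21 in the deep libraries (unadjusted p = 0.00837, adjusted p = 0.182).

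Atp5b, the catalytic beta subunit, had the largest positive value of the complex. It was at 146, 439, 421, 442 and 200 CPM in SF_CD against 482, 570, 430, 398 and 396 CPM in SF_HFD. Its 3 deep SF_CD libraries lay within the SF_HFD range. The log2 fold change was 0.46 ± 0.35 (adjusted p = 0.648, edgeR), and 0.12 ± 0.20 in the deep libraries. Atp5md, a small membrane subunit, had the highest level per length of the complex, at 1984 CPM per kilobase, and was at 697 ± 223 and 740 ± 99.6 CPM.

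The rotor's c-ring is built from 1 mature peptide that 3 genes encode. Atp5g1 gave 64.7%, 61.1%, 55.7%, 56.0% and 56.7% of their counts in SF_CD and 55.9%, 54.8%, 51.2%, 50.4% and 64.3% in SF_HFD. It held the most counts in every library, and the groups overlapped. These shares are not scaled by transcript length. Per length Atp5g1 was the lowest of the 3 genes, at 306 CPM per kilobase beside 520 for Atp5g2 and 436 for Atp5g3. The mean share of Atp5g1 in the counts was 58.8% ± 3.96 in SF_CD and 55.3% ± 5.55 in SF_HFD (SD, n = 5, two-sided exact permutation test p = 0.254, adjusted 0.524). Atp5g3 gave 19.7% ± 3.68 and 23.7% ± 5.06 (p = 0.175, adjusted 0.524, the same permutation test), and Atp5g2 21.5% ± 1.0 and 21% ± 2.89 (p = 0.770). With 5 libraries against 5, the smallest p this test can give is 0.00794, and with 3 against 4 it is 0.0571. In the deep libraries Atp5g3 gave 18.7%, 22.1% and 21.3% in SF_CD 2 to 4 and 23.4%, 28.7%, 25.3% and 26.0% in SF_HFD 1 to 4. These did not overlap, while the shares of Atp5g1 and Atp5g2 did. The difference for Atp5g3 was positive in all 12 alternatives tried for shares (2.56 to 6.16 percentage points, lowest adjusted p 0.0952, the same permutation test).

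Levels per length spread widely between the tested members. Divided by the median annotated transcript length, they ran from 7.12 CPM per kilobase for Ndufaf6, an assembly factor, to 2388 for Ndufa4. The median was 348 CPM per kilobase over complex I subunits, 110 over complex II, 829 over complex III, 761 over complex IV and 743 over complex V. The assembly factors had a median of 21 and ran from 7.12 to 141. The core subunits of complex I had a median of 93.9 and its accessory subunits of 450 CPM per kilobase. These are levels with no test, and Ndufb1 had no annotated length to divide by.

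Lists of other genes of the pathway gave 0 calls with edgeR, DESeq2 and limma-voom. At an unadjusted p under 0.05, edgeR found 2 of 45 assembly factors, 1 of 14 regulators and 1 of 8 genes of electron entry. It also found 1 of 14 mitochondrial ribosomal proteins, and none in the other lists of the pathway. Over all genes tested 11.6% passed this threshold. All 13 mitochondrially encoded subunits were tested, with 0 called and a median log2 fold change of -0.01 (0.12 in the deep libraries). Their most abundant gene, mt-Co3, a core subunit of complex IV, was at 7074 ± 2926 and 10491 ± 2601 CPM (SD, n = 5, adjusted p = 0.560, edgeR). Of 45 assembly factors outside the name rule 0 were called (median -0.04, and -0.15 in the deep libraries), and Uqcc2, an assembly factor of complex III, was at 349 ± 185 and 378 ± 88.9 CPM. Of 17 tricarboxylic acid cycle enzymes 0 were called (median 0.16, and -0.18 in the deep libraries), with the malate dehydrogenase Mdh2 at 468 ± 261 and 476 ± 141 CPM.

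Of 7 tested ATP synthase inhibitor and adenine nucleotide carrier genes 0 were called (median 0.07, and -0.42 in the deep libraries). The carrier Slc25a5 was at 1863 ± 1041 and 1632 ± 652 CPM. Of 8 genes for electron entry outside complexes I and II 0 were called (median 0.02, and -0.15 in the deep libraries), with the electron transfer flavoprotein Etfb at 250 ± 121 and 251 ± 75 CPM. Of 14 mitochondrial ribosomal proteins 0 were called (median 0.20, and -0.13 in the deep libraries), with Mrpl28 at 236 ± 134 and 288 ± 86.2 CPM. Of 17 regulators of respiratory chain genes 14 were tested and 0 called (median 0.15, and 0.30 in the deep libraries). Their most abundant gene, Myc, was at 95.2 ± 41.9 and 78.6 ± 32.1 CPM, and Esrrb, Esrrg and Perm1 were at 0 in all 10 libraries.

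Promoters of the members were set beside those of all genes, the members included, because NRF1, GABPA and YY1 are factors known to bind promoters of respiratory chain genes. RefSeq windows (GRCm38.p6, 250 bases before to 50 after the start) matched 78 of the 99 members. The letters GCATGCGC, the core of the NRF1 site, stood on either strand in 13 of 78 member genes (16.7%) and in 3.05% of all 27025 genes with a window. AAGATGGCG, for YY1, stood in 8 (10.3%) against 1.64%, and CCGGAAGT, for GABPA, in 5 (6.41%) against 4.31%. The 27025 genes were not limited to those expressed in these libraries, so a larger share is not shown to be particular to the members. A match is a description of the letters, not a bound site. The 250 bases before the start of Cycs (chromosome 6, 50566570 to 50566819, minus strand) are printed as an example, with the NRF1 letters in capitals.
Cycs promoter: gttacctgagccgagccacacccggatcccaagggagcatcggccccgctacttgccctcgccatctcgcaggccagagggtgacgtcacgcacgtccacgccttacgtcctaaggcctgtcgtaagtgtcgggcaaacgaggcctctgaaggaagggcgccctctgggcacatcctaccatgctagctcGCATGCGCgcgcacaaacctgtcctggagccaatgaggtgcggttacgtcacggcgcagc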

How the data were processed

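RNA was sequenced in 10 serine-free mouse colon libraries (5 SF_CD, 5 SF_HFD), grouped by their titles. The authors deposited estimated counts per gene, written as whole numbers, made with Salmon 1.3.0 against mm10, per the submitters' processing notes. No value was rounded further. Totals were 499774 to 12841275, so 3 counts are 6.0 CPM in the shallowest library and 0.234 CPM in the deepest.

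Counts were tested with edgeR 4.0.16 (R 4.3.3): TMM normalization, filterByExpr, a robust quasi-likelihood test over the whole table, Benjamini-Hochberg adjustment and a threshold of 0.05. Standard errors were derived from the fold change and the F statistic. Shares and sums were compared by two-sided exact permutation tests. The code was tested on simulated data. The alternatives tried were normalization by RLE or by upper quartile, no low-count filter, a stricter one (10 counts in 8 libraries), DESeq2 1.42.0, limma-voom (limma 3.58.1) with quality weights, a replicate block, each library left out, and the 3 libraries under 1000000 counts left out.

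Members and lists (14 lists) were chosen with earlier results of these data known. Named members were, in each class, the highest per length and the largest rise and fall among those of mean log2 CPM of at least 1, those whose groups did not overlap, the isoform families and Ndufb4 with its copies. From other lists the called genes or the most abundant gene were named. Ndufa3, Ndufaf5, Ndufaf7, Cyc1, Atp5l, Uqcrb, Krt8 and the other markers called only by DESeq2 or limma-voom were added after their values were seen. Lengths and coordinates are from GENCODE M21. Rows with a blank symbol held 0.0141% to 0.0257% of the counts and stayed in the table under their identifiers.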

Additional observations from a re-analysis of the deposited data

Results flagged for a closer look

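A library was set apart where its gap to the nearest of the other 4 of its group, divided by the group's range, exceeded Dixon's critical value of 0.71. Of 98 sets of 5 values examined, 6 exceeded it, and for normally distributed values chance alone gives about 1 in 20. That rate does not hold for sets with few counts, since the ratio is always 1 where only 1 library holds counts, as for Cox8b. Ndufaf4 was at 195 CPM in SF_HFD 1, with 59.1 to 84.8 CPM in the other 4 SF_HFD libraries. Cox6b2 was at 2.04 CPM in SF_CD 4, from 27 counts, where the rest of SF_CD had 0 to 0.279 CPM, and its share of the Cox6b counts there was 0.223%, with 0% to 0.0220% in the others. Cox8b was at 0.110 CPM in SF_CD 2 and at 0.361 CPM in SF_HFD 1, from 1 and 4 counts, and at 0 in the other 4 libraries of each group. The share of Ndufa4l2 was 0.275% in SF_CD 5, from 1 count, with 0% to 0.0574% in the other SF_CD libraries. The cause of these values was not tested.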

How the results depend on the processing

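Calls for members stayed at 0 in all 18 alternatives, with 0.136 (Cox7c, limma-voom) as the smallest adjusted p. The number of genes called over the whole table was 38, and became 78 without the filter, 3 with the stricter filter, 298 with DESeq2, 168 with limma-voom, 22 with the replicate block and 16 to 88 with 1 library left out. Same-numbered libraries showed little common variation. Correlations were -0.21 to 0.14, over 0.1 in 1 of 5 pairs, and 1 of 5 SF_CD libraries matched its own number best. The numbers were not treated as pairs in the main test. Since 3 libraries were shallow, these correlations cannot exclude a pairing.

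The median log2 fold change of the members was 0.13, and became -0.10 with limma-voom and -0.22 in the 7 deep libraries. With 1 library left out it ran from -0.077 (without SF_CD 1) to 0.26. Fold changes that turned negative with limma-voom and in the deep libraries, in that order, were those of Ndufa7 (-0.10 and -0.25), Sdhb (-0.14 and -0.31), Sdha (-0.20 and -0.36), Uqcrq (-0.084 and -0.18), Atp5md (-0.076 and -0.16), Cycs (-0.033 and -0.25), Cox4i1 (-0.047 and -0.087), Cox7a1 (-0.22 and -0.41) and Atp5g3 (-0.10 and -0.11). Sdhc (-0.095) and Ndufa4 (-0.15) turned in the deep libraries. Sdha and Cox7a1 also turned with RLE (-0.017 and -0.037) and DESeq2 (-0.032 and -0.051).

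With 1 library left out, values ran from -0.028 to 0.33 for Ndufa7, -0.13 to 0.26 for Sdhb, -0.14 to 0.13 for Sdha, -0.31 to 0.039 for Uqcr11, -0.19 to 0.12 for Cox6b1, -0.079 to 0.20 for Atp5md, -0.075 to 0.37 for Cycs, -0.18 to 0.44 for Cox7a1, -0.30 to 0.083 for Atp5g1, -0.29 to 0.042 for Atp5g2 and -0.081 to 0.27 for Atp5g3. Differences in share ran from -1.23 to 0.283 percentage points for Cox7a1, -0.0504 to 0.00534 for Cox6b2 and -1.21 to 0.556 for Atp5g2, and that of the Ndufb4 sum from -105 to 14 CPM, beside -26.0 CPM in all libraries and -145 CPM in the deep ones. The cause of these turns was not tested. The other named members, Cox7c, Uqcrfs1, Ndufb2, Ndufb1, Ndufb4, Ndufaf3, Ndufaf4, Ndufaf8, Atp5b, Atp5e, Cox6a1, Cox7a2 and Cox8a, kept their direction in all 18. Depth limits the lowest members most, with 1 count of some tested members in SF_CD 1.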
